A study of Homo sapiens with 97 samples.

Results

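The transcripts described here are those of 10 human genes of the nuclear envelope list: the lamins LMNA, LMNB1 and LMNB2, the proteins LBR, EMD, TMPO, SUN1, SUN2 and LEMD3 of the inner nuclear membrane, and MAN1A2. They were chosen by name, with earlier results of these data known. Of them 10 of 10 were found among the 60675 gene identifiers of each of the 5 count tables. MAN1A2 goes against the group's name: it codes for a mannosidase of the Golgi, whereas MAN1, the inner nuclear membrane protein, is the product of LEMD3, so MAN1A2 was kept apart as a gene of the secretory pathway. The RNA came from HEK293T cells, an established human embryonic kidney line, made to carry stably 1 of 9 fusions of the peroxidase APEX2: NLS in the nucleus, NIK in the nucleolus, LMA at the nuclear lamina, NucPore at the nuclear pore, NES in the cytosol, ERM on the cytosolic face of the endoplasmic reticulum (ER), KDEL in the ER lumen, OMM on the outer mitochondrial membrane and MITO in the mitochondrial matrix. Labelled and unlabelled cells of every construct received biotin-phenol for 30 min, a step the labels do not give for the fractions named below. In labelled cells 1 mM hydrogen peroxide then let APEX2 tag RNA near it, and unlabelled cells went through the same steps without peroxide. Each group had 2 libraries of poly(A) RNA, and further groups held total RNA of the MITO cells, OMM and NES cells given cycloheximide, puromycin, CCCP or nocodazole, and nuclear and cytosol fractions of HEK293T cells, for which the labels name no construct. A technical repeat of the second labelled MITO poly(A) library was left out of the fits. Whether the 2 replicates of a group came from separately derived lines is not in the labels.

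Lamins are filament proteins made on free ribosomes, imported through the pores and assembled under the inner nuclear membrane, where most carry a lipid on a cysteine close to their C terminus. Proteins of the inner membrane take another route, since the nuclear envelope is continuous with the ER: most are inserted into the ER while they are made and reach the inner membrane by diffusion. Emerin, the product of EMD, is inserted into the membrane after its synthesis, and TMPO gives both membrane forms and a soluble form of LAP2. LBR binds B-type lamins and heterochromatin and also has a sterol reductase domain, SUN1 and SUN2 reach across the perinuclear space to bind nesprins, and LEMD3 restrains SMAD signalling.

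The coding sequences are given for the features that these routes are known to use, a cysteine codon near the end or a hydrophobic stretch, since the labelling values are read against them further on. For the lamins the last coding bases and the stop codon are shown, 5′ to 3′, with the codon of the lipid-bearing cysteine in capitals. No stretch of 19 residues of any of the 3 reached a mean Kyte-Doolittle hydropathy of 1.6, a common mark of membrane spans.
LMNA: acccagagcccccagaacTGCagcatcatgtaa
LMNB1: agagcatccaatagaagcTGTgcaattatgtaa
LMNB2: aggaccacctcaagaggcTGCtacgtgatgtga

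For 6 of the others the coding bases of the first stretch above that mark are shown, with codons that have T in second place, which code for the most hydrophobic residues, in capitals.
TMPO: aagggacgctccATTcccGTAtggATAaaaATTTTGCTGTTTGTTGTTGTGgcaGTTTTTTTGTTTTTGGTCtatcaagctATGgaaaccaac
LBR: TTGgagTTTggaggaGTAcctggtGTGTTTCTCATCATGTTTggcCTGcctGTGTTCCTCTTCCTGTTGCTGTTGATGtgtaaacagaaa
SUN1: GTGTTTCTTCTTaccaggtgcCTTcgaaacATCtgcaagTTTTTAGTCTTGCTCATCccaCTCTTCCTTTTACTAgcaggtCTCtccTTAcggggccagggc
SUN2: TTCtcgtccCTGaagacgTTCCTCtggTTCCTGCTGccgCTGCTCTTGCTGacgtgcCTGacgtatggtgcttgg
LEMD3: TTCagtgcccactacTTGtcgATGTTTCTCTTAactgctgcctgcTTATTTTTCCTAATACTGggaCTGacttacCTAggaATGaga
MAN1A2: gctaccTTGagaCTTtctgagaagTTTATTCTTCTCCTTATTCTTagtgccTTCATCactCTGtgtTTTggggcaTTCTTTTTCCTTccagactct

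In the longest membrane form of TMPO this stretch left 17 codons before the stop. The other genes shown had it far upstream: 379 codons followed the first stretch in LBR, which has 6 of them, 415 in LEMD3, which has 2, 473 in SUN1, 486 in SUN2 and 581 in MAN1A2. Of 5 coding isoforms of TMPO in the basic annotation 3 held such a stretch, and the 694-codon isoform taken as principal did not, so TMPO counts may mix transcripts of both kinds, and which isoforms these cells express was not measured here. Of 7 isoforms of SUN1 5 held one. Sequences are those of GENCODE 29 transcripts on GRCh38, on which LMNA (ENSG00000160789) lies on chromosome 1 at 156082573 to 156140089, LMNB1 (ENSG00000113368) on chromosome 5 at 126776623 to 126837020, LMNB2 (ENSG00000176619) on chromosome 19 at 2427638 to 2456996, LBR (ENSG00000143815) on chromosome 1 at 225401502 to 225428925 and EMD (ENSG00000102119) on chromosome X at 154379197 to 154381523. TMPO (ENSG00000120802) lies on chromosome 12 at 98515512 to 98550379, SUN1 (ENSG00000164828) on chromosome 7 at 816615 to 896435, SUN2 (ENSG00000100242) on chromosome 22 at 38734725 to 38794143, LEMD3 (ENSG00000174106) on chromosome 12 at 65169571 to 65248327 and MAN1A2 (ENSG00000198162) on chromosome 1 at 117367449 to 117528872. Exons of LMNB2 overlap those of TIMM13, SUN1 those of GET4 and SUN2 those of DNAL4 on the same strand, and TMPO, SUN1 and SUN2 have antisense neighbours. How the counting treated shared bases is not given in the sources used here, so these 4 values carry that doubt.

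Depth ran from 9330259 to 76714068 counts per library in the table of 9 constructs, 22749527 to 55763066 with drugs, 15473060 to 33966883 with nocodazole and 34961110 to 44973261 for the fractions. Levels are in CPM, a gene's counts relative to the total counts of its library after TMM scaling. Some libraries, called of low complexity here, lacked over 2% of the well-expressed genes (averaging 5 CPM or more). In the constructs table these were 7 of 36: ERM labelled 1, both NIK labelled, NucPore labelled 1 and unlabelled 1, NES unlabelled 1 and OMM unlabelled 2. With drugs they were 3 of 24: both OMM cycloheximide unlabelled and NES puromycin unlabelled 2. With nocodazole they were 6 of 28, lacking up to 16.26%: all unlabelled OMM libraries, NES 3 min unlabelled 2 and OMM 2 h labelled 1. MITO total RNA labelled 1 was another. Differences are log2 fold changes ± standard error from edgeR's quasi-likelihood test, and a gene is called higher or lower where the Benjamini-Hochberg adjusted p over all genes tested was under 0.05. All 10 genes passed the filter on low counts in every table. Each library pools many cells, so fewer cells with a transcript and less of it per cell cannot be told apart. The 2 libraries of a group are labelled as biological replicates.

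Per length of exon, the 10 transcripts fell into an abundant and a sparse set in the 16 unlabelled libraries of constructs other than LMA. The length joins the exons of all annotated isoforms and can exceed that of a single transcript. For TMPO it was 8593 bases against 4242 in the longest membrane form, and for SUN1 11811 against 3812 in the principal form. The order and the sets rest on that length. LBR had the highest median, 77.2 CPM per kb (64.5 to 116), followed by LMNB1 with 72.3 (61.8 to 109), EMD with 63.3 (39.4 to 82.1), LMNB2 with 52.0 (31.0 to 71.7) and TMPO with 39.2 (29.9 to 58.9). Neighbours in this order overlapped. The other transcripts lay below: SUN2 at 10.8 (4.48 to 18.5), LEMD3 at 10.9 (6.03 to 17.1), SUN1 at 10.6 (7.46 to 16.3), MAN1A2 at 9.17 (6.93 to 14.9) and LMNA at 8.7 (3.42 to 12.7). These 5 overlapped one another and none reached the lowest library of TMPO. LMNA, which dominates the lamina of stiff tissues, was thus the least abundant lamin transcript of these kidney-derived cells, apart from the LMA line described further on.

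Labelling at the ER surface divided the group. With ERM 8 of the 10 transcripts were called, 5 higher and 3 lower, where 12.9% of 22680 genes tested were called. The transcript of LBR rose 1.47 ± 0.17 on the log2 scale, MAN1A2 2.13 ± 0.24, SUN1 1.15 ± 0.21, SUN2 1.02 ± 0.33 and LMNB2 0.71 ± 0.19, while LMNA fell (-1.45 ± 0.35), as did EMD (-0.83 ± 0.25) and LMNB1 (-0.67 ± 0.20). The median over all genes tested was 0 in this comparison, that of the 3 lamins was -0.67 and that of the 6 inner membrane genes 1.04.

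**Figure D1:**
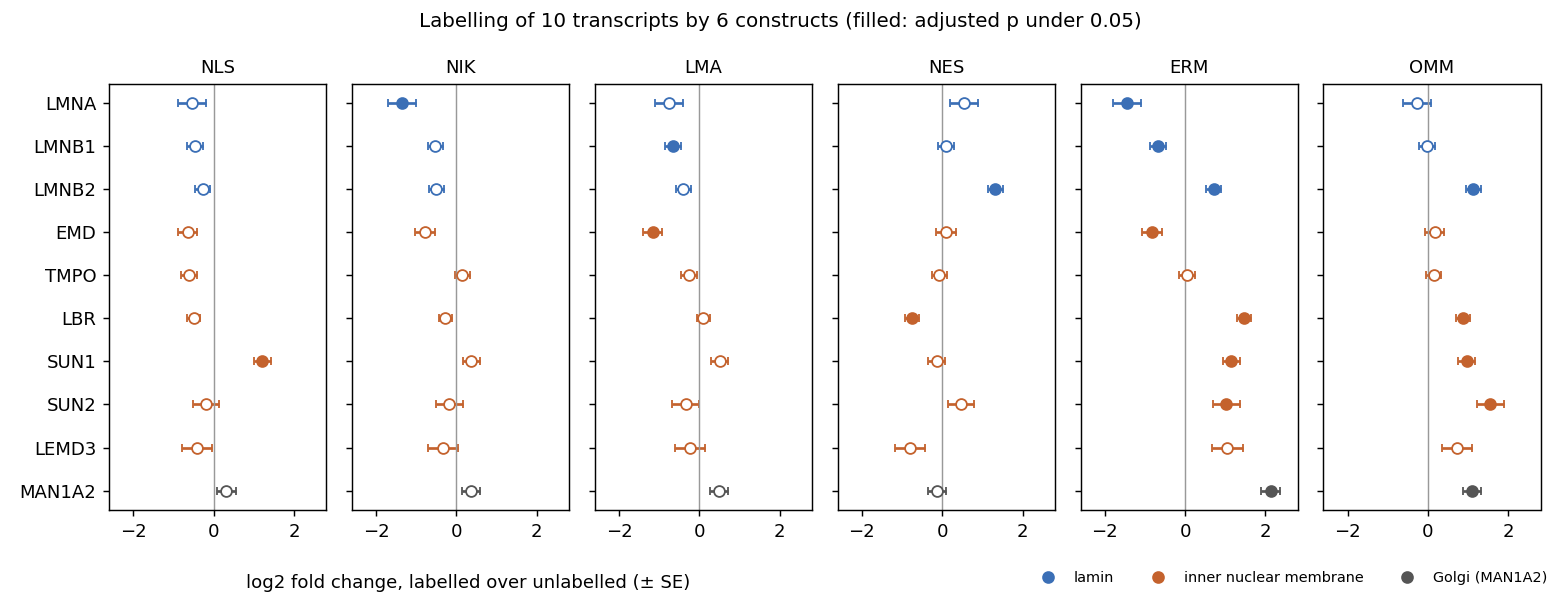
Log2 fold change of labelled over unlabelled libraries (x axis, bars are standard errors) for each of 10 genes (y axis) with 6 constructs, 2 libraries per group; filled points have an adjusted p under 0.05. LBR, SUN1, SUN2 and MAN1A2 lie to the right of 0 with ERM and OMM, LMNA, LMNB1 and EMD to the left with ERM, and SUN1 alone is called with NLS.

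Among the inner membrane genes LBR stood out by level. It was at 1030 and 1130 CPM in the labelled ERM libraries and at 394 and 383 in the unlabelled ones (adjusted p = 5.85e-08). The labelled ERM libraries were the highest of the 36 in the table, and the call held in all 11 alternatives, with values from 1.4 to 1.57. SUN1 had 210 and 332 CPM labelled and 119 and 125 unlabelled, and was called in each of its 11 alternatives as well (0.78 to 1.48). SUN2 is less sure: its labelled libraries held 74.6 and 189 CPM against 67.1 and 62.4, and without the second labelled library the difference was 0.20 (adjusted p = 0.863). The call was also lost without either unlabelled library. LEMD3 had 103 and 125 CPM labelled and 53.8 and 56.3 unlabelled, with no overlap, but at 1.05 ± 0.38 its adjusted p was 0.0616. DESeq2 called it (adjusted p = 0.0313), and so did the fit without any low-complexity library (1.21, adjusted p = 0.00017).

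EMD and TMPO did not go with them. EMD was at 57.9 and 58.7 CPM in the labelled ERM libraries and at 88.1 and 119 in the unlabelled ones (adjusted p = 0.0199), and this call was lost without either labelled library or without the second unlabelled one. TMPO held 342 and 368 CPM labelled and 365 and 322 unlabelled, so its groups overlapped and the difference was 0.05 ± 0.19. In TMPO the hydrophobic stretch lies near the stop codon or, in some isoforms, is missing. Whether this bears on its labelling was not tested.

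The 3 lamins differed from each other. LMNA, which codes for lamins A and C, was at 15.9 and 29.6 CPM with ERM labelled and 56.8 and 67.5 unlabelled (adjusted p = 0.00391). Without ERM labelled 1, a library of low complexity, the value was -1.07 and no longer called (adjusted p = 0.158). LMNB1, which codes for a permanently farnesylated lamin, was at 189 and 159 CPM labelled and 291 and 262 unlabelled (adjusted p = 0.0185). The other B-type lamin went the opposite way, LMNB2 holding 363 and 393 CPM labelled and 212 and 251 unlabelled (adjusted p = 0.00713). The LMNB2 call was lost without the first unlabelled library (0.59, adjusted p = 0.125) and the LMNB1 call without the second labelled (-0.55, adjusted p = 0.153) or the first unlabelled one.

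**Figure D2:**
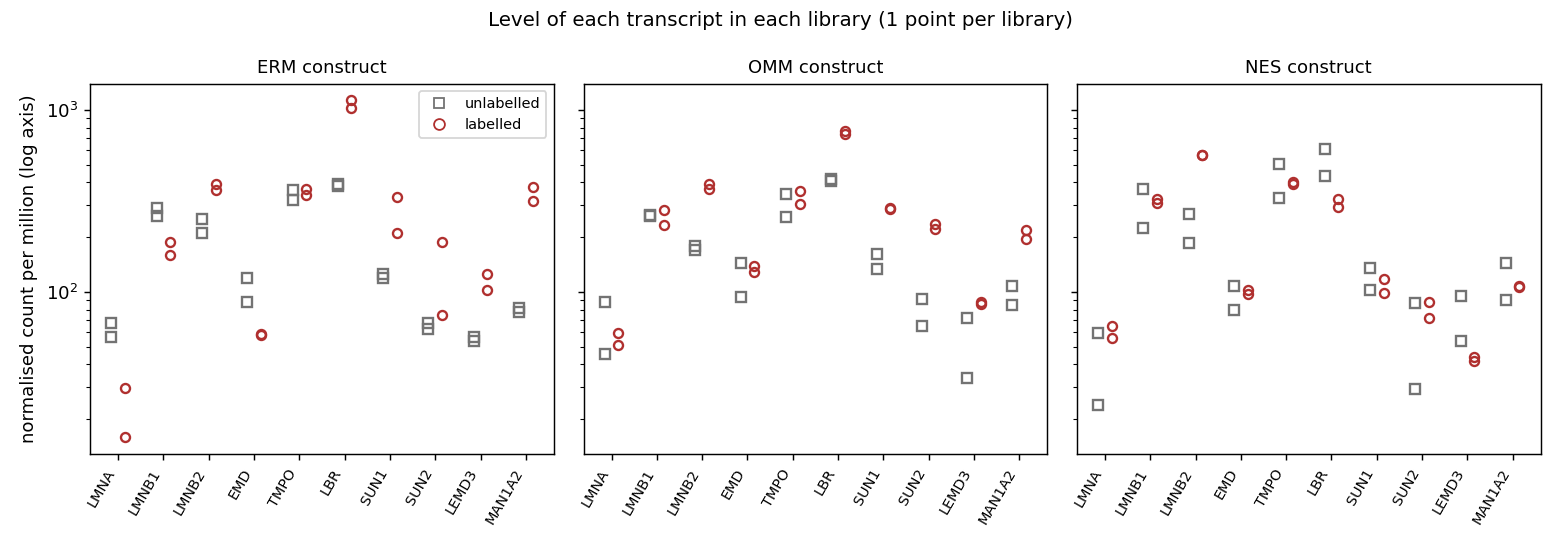
Normalised CPM (log axis) of each gene in each library of the ERM, OMM and NES constructs; squares are unlabelled and circles labelled libraries. Labelled and unlabelled LBR libraries are furthest apart with ERM, and labelled LMNB2 libraries lie above unlabelled ones with all 3 constructs.

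MAN1A2, whose product trims mannose in the Golgi, gave the widest difference of the 10 with ERM. It was at 378 and 316 CPM labelled and 77.1 and 81.6 unlabelled (adjusted p = 3.6e-08), a 4.37-fold difference that was called in all 11 alternatives.

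OMM labelling raised 5 of the 10 transcripts and lowered 0, where 4.99% of genes were called (DESeq2 called the same 5, and the 5 that edgeR left uncalled had no unadjusted p under 0.05). SUN2 had 222 and 236 CPM labelled and 64.9 and 91.0 unlabelled, a rise of 1.55 ± 0.33 (adjusted p = 0.00253). LMNB2 was at 367 and 393 CPM against 169 and 178 (1.13 ± 0.19, adjusted p = 0.00011), and LBR at 766 and 739 against 418 and 405 (0.87 ± 0.17, adjusted p = 0.00069). These 3 were called in all 11 alternatives. SUN1 was at 289 and 285 CPM against 162 and 133 (0.96 ± 0.21) and MAN1A2 at 195 and 218 against 108 and 84.4 (1.10 ± 0.23). Both calls were lost without the second unlabelled OMM library, a library of low complexity. LEMD3 did not pass (0.72 ± 0.37), nor did EMD, TMPO, LMNA and LMNB1, whose groups overlapped (-0.28 to 0.17).

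In the cytosol 2 of the 10 transcripts were called with NES, where 3.88% of genes were: LMNB2 was higher and LBR lower. LMNB2 was at 564 and 569 CPM labelled and 186 and 269 unlabelled, a rise of 1.32 ± 0.19 (adjusted p = 4.55e-05) that fell short only when the 4 NES libraries were fitted alone (adjusted p = 0.253). LBR went from 609 and 432 CPM unlabelled to 325 and 292 labelled (-0.75 ± 0.17, adjusted p = 0.00501). Without NES unlabelled 1, a library of low complexity, that value was -0.52 (adjusted p = 0.244), and without NES labelled 2 it was -0.64 (adjusted p = 0.214). LMNA and EMD, which were lower with ERM, gave 0.54 ± 0.35 and 0.10 ± 0.24 with overlapping groups.

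Tests of the difference between constructs set these values against each other, and comparisons that share NES or ERM libraries are not independent. ERM against NES labelling called 5 of the 10 (3.84% of genes): LBR (2.23 ± 0.24), MAN1A2 (2.25 ± 0.33), LEMD3 (1.85 ± 0.53) and SUN1 (1.29 ± 0.29) were more labelled with ERM, and LMNA (-1.98 ± 0.50) less. Those of LEMD3 and LMNA lost their calls without NES unlabelled 1 (1.39 and -1.46) and kept them in 7 and 10 of 15 alternatives. OMM against NES called LBR (1.63 ± 0.24), MAN1A2 (1.23 ± 0.33) and SUN1 (1.09 ± 0.29), 3 of 10 where 1.72% of genes were called. Of these LBR kept its call in all 15 alternatives, MAN1A2 in 5 and SUN1 in 6. LMNB2, labelled with both, gave -0.61 ± 0.26 for ERM and -0.19 ± 0.26 for OMM against NES and was not called in either.

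ERM against OMM called 0 of the 10 with edgeR (1.78% of genes were called, and 5 of the 10 had an unadjusted p under 0.05); DESeq2 called MAN1A2 (1.05). The widest differences were LMNA (-1.17 ± 0.49), MAN1A2 (1.03 ± 0.32) and EMD (-0.99 ± 0.35), and with all low-complexity libraries left out these 3 were called (-1.32, 1.09 and -1.31).

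Constructs inside the nucleus called fewer of the 10 than ERM did, and fewer of all genes too (12.9% were called with ERM). With NLS, free in the nucleus, 1 transcript was called, where 5.2% of genes were. That was SUN1, at 204 and 216 CPM labelled and 88.1 and 92.3 unlabelled (1.22 ± 0.21, adjusted p = 0.000242), called in each of 10 alternatives. The other inner membrane genes had values from -0.64 (EMD) to -0.19 (SUN2) and the lamins from -0.53 to -0.27, below the median of 0.29 over all genes, and MAN1A2 had 0.32. The NLS and NES difference was called for SUN1 (1.35 ± 0.29) and LMNB2 (-1.58 ± 0.26), 2 of 10 where 2.28% of genes were. ERM against NLS was called for LBR (1.96 ± 0.24), MAN1A2 (1.81 ± 0.33) and LMNB2 (0.98 ± 0.26), 3 of 10 where 7.54% of genes were, and SUN1, labelled with both, gave -0.06 ± 0.29.

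NIK, in the nucleolus, called LMNA alone, where 5.24% of genes were called. It was at 22.2 and 11.7 CPM labelled and 41.0 and 45.6 unlabelled (-1.35 ± 0.36, adjusted p = 0.0188). Both labelled NIK libraries were of low complexity. The call was lost without the second of them (-0.98, adjusted p = 0.168) and without either unlabelled library (-1.46 and -1.29).

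NucPore labelling called 0 of 10 by edgeR, where 0% of genes were called (1341 genes, and LBR of the 10, had an unadjusted p under 0.05; DESeq2 called 0 of the 10). SUN2 was at 157 and 135 CPM labelled and 85.1 and 120 unlabelled, and LBR at 274 and 303 against 409 and 339.

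With LMA, at the lamina itself, 2 of the 10 were called, both lower, where 7.68% of genes were called: EMD was at 85.0 and 79.8 CPM labelled and 174 and 195 unlabelled (-1.16 ± 0.25, adjusted p = 0.00167), and LMNB1 at 159 and 152 against 255 and 233 (-0.65 ± 0.20, adjusted p = 0.0365). The EMD call held in all 10 alternatives. The LMNB1 call was lost without any 1 of the 4 LMA libraries (-0.58 to -0.71 there) and with RLE size factors (-0.59, adjusted p = 0.0632). DESeq2 called SUN1 higher (0.57, adjusted p = 0.0304). At an unadjusted p under 0.05 with edgeR, SUN1 and MAN1A2 were higher and LMNA and LMNB2 lower, besides the 2 called. LMNB2 was at 203 and 233 CPM labelled and 256 and 317 unlabelled. LMA against NLS called 0 of 10 by edgeR and by DESeq2, where 0.00441% of genes were called, with LBR and SUN1 at an unadjusted p under 0.05. LMA against ERM was called for LBR (-1.37 ± 0.24), MAN1A2 (-1.64 ± 0.33) and LMNB2 (-1.11 ± 0.26), 3 of 10 where 5.71% of genes were, all less labelled with LMA. LMA against NES was called for LMNB2 (-1.71 ± 0.26), EMD (-1.26 ± 0.35) and LBR (0.86 ± 0.24), 3 of 10 where 4.04% of genes were. LMNB2 kept its call in all 15 alternatives, EMD in 6 and LBR in 4. With controls of all 9 constructs EMD was at -0.28 (adjusted p = 0.779) and LBR at 0.15 (adjusted p = 0.855).

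LMNA itself cannot be read as a native transcript in these cells. The 2 unlabelled LMA libraries held 3790 and 4360 CPM of LMNA and the labelled ones 2330 and 2520, while the other 32 libraries of the table ranged from 11.7 to 90.9. The lowest LMA library was 25.6 times the highest of the others. LMA unlabelled against the mean of the other unlabelled groups gave 6.15 ± 0.19 (adjusted p = 1.91e-22), called in all 24 alternatives, and 2 of the 10 were called in that comparison where 6.18% of genes were. The LMA construct is known as a fusion of APEX2 to lamin A, which the labels do not spell out, and counts per gene cannot separate its transcript from the native one. Within the line LMNA was lower when labelled (-0.75 ± 0.34, adjusted p = 0.212). Without the low-count filter it passed (-0.81) as it did with the 4 LMA libraries alone (-0.75, adjusted p = 0.0352), and against the unlabelled libraries of all 9 constructs the same labelled libraries gave 4.72. EMD was the other called transcript, higher in the unlabelled LMA libraries (174 and 195 CPM) than in the 16 others (79.6 to 166), by 0.56 ± 0.17 (adjusted p = 0.0495), a call lost in 16 of its 24 alternatives.

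**Figure D3:**
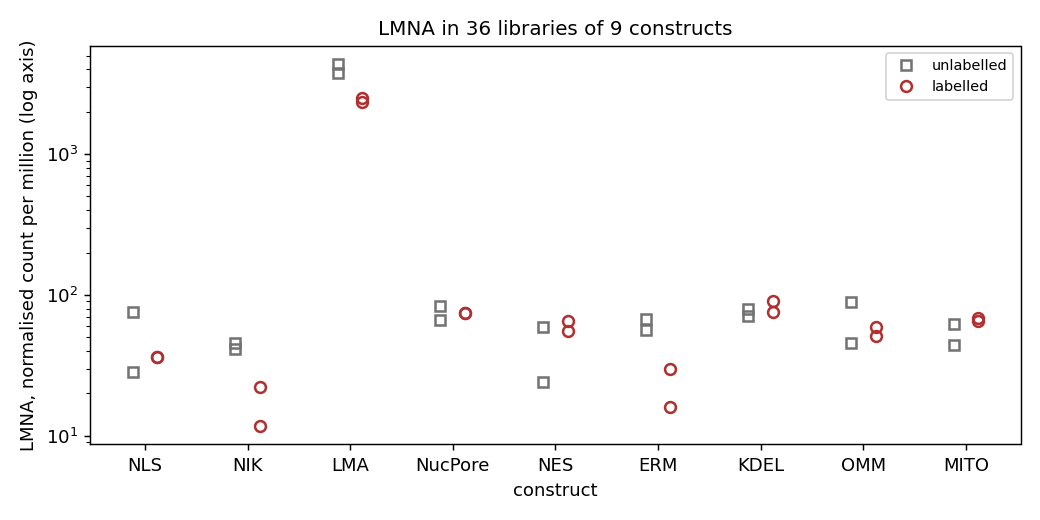
LMNA level in CPM (log axis) in each of 36 libraries of 9 constructs; squares are unlabelled and circles labelled. The 4 LMA libraries lie between 2330 and 4360 and all others between 11.7 and 90.9. The lowest are NIK labelled 2 (11.7), ERM labelled 1 (15.9) and NIK labelled 1 (22.2), followed by NES unlabelled 1 (23.9).

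The 2 enclosed compartments showed little. KDEL, in the ER lumen, called 0 of 10 by edgeR and by DESeq2, where 0% of genes were called, with values from -0.24 to 0.17 and none of the 10 at an unadjusted p under 0.05. LBR was at 328 and 361 CPM labelled and 426 and 391 unlabelled there, lower without overlap, and MAN1A2 at 81.3 and 94.6 against 96.2 and 112. MITO called 0 of 10 by edgeR where 1.05% of genes were called, 6 of 10 having an unadjusted p under 0.05, and DESeq2 called LMNB2 (0.63). In total RNA of the MITO cells edgeR and DESeq2 called 0 of 10, where 0.63% of 14911 genes were called, and LMNB1 and TMPO had an unadjusted p under 0.05.

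Nuclear and cytosol fractions were separate libraries, made without APEX2 labelling. Of the 10 transcripts 8 were called between nuclear and cytosol fractions, a comparison in which 62% of 19115 genes were. The nuclear fraction held more of SUN2 (29.9 and 52.2 CPM against 7.63 and 7.39, 2.45 ± 0.30), SUN1 (236 and 228 against 45.7 and 47.7, 2.31 ± 0.17) and LEMD3 (87 and 85.7 against 26.9 and 51.2, 1.14 ± 0.26). LBR was at 497 and 416 CPM in the nuclear and 230 and 236 in the cytosol libraries (0.97 ± 0.17), and MAN1A2 at 93.8 and 85.0 against 59.1 and 48.0 (0.74 ± 0.19). The cytosol held more of TMPO (343 and 362 CPM against 226 and 211 in the nuclear fraction, -0.69 ± 0.16), LMNB1 (251 and 273 against 170 and 171, -0.62 ± 0.16) and EMD (77.2 and 97.1 against 51.3 and 67.5, -0.55 ± 0.20). LMNA (0.10 ± 0.22) and LMNB2 (-0.31 ± 0.26) overlapped between fractions.

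All 5 genes higher in the nuclear fraction had positive ERM values of at least 1.02, and TMPO, LMNB1 and EMD, the 3 higher in the cytosol, had ERM values from -0.83 to 0.05. How much ER stayed with the nuclei was not tested. The calls for LBR, LMNB1, SUN1, SUN2 and TMPO held in all 8 alternatives. Those for EMD (without the first nuclear or the second cytosol library or the filter on low counts, -0.43, -0.38 and -0.52), LEMD3 (without the filter on low counts) and MAN1A2 (without the first nuclear library, 0.60) did not.

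**Figure D4:**
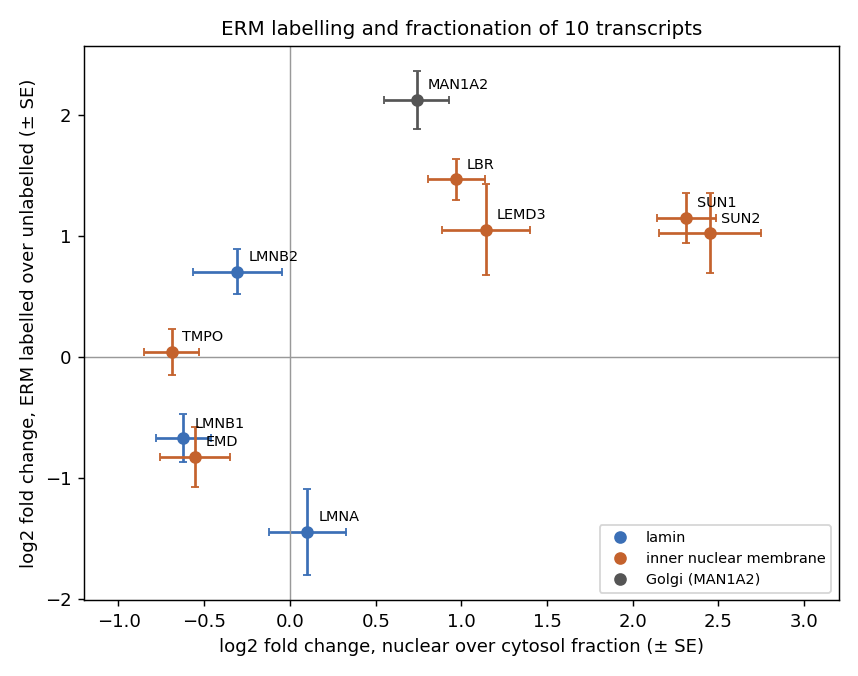
Log2 fold change of nuclear over cytosol fraction (x axis) and of ERM labelled over unlabelled (y axis) for 10 genes, bars being standard errors. LBR, SUN1, SUN2, LEMD3 and MAN1A2 are above 0 on both axes, LMNB1 and EMD below 0 on both, and LMNB2 is above 0 on the ERM axis and below 0 on the other.

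OMM labelling of the 5 genes with over 300 codons after the first hydrophobic stretch was called with cycloheximide and not with puromycin. Fewer genes over all were called with puromycin as well, 2.13% against 17.7% with cycloheximide. The test between the drugs, given below, called LBR and SUN2 of these 5 genes. Cycloheximide holds ribosomes on the messenger, puromycin releases the growing chain, and CCCP abolishes the potential across the inner mitochondrial membrane. With cycloheximide 5 of the 10 were higher at OMM, where 17.7% of 21441 genes were called: SUN2 (2.09 ± 0.30), LBR (1.53 ± 0.17), MAN1A2 (1.51 ± 0.28), LEMD3 (1.18 ± 0.29) and SUN1 (0.99 ± 0.27). LBR was at 1340 and 1480 CPM labelled and 527 and 447 unlabelled, and SUN2 at 234 and 206 against 54.2 and 49.2. These 2 kept their calls in all 9 alternatives. LMNB2 was not among them (343 and 363 CPM against 316 and 505, -0.22 ± 0.16). Both unlabelled libraries of this group were of low complexity.

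With puromycin LMNB2 alone was called at OMM (0.69 ± 0.16, adjusted p = 0.0302, where 2.13% of genes were called), at 497 and 552 CPM labelled and 341 and 308 unlabelled. LBR was at 422 and 413 against 313 and 307 (0.43 ± 0.17, not called). With CCCP it was again LMNB2 alone (471 and 511 CPM against 323 and 344, 0.56 ± 0.16, adjusted p = 0.0464, where 6.84% of genes were called). Both LMNB2 calls were lost when any 1 of the 4 libraries was left out. With CCCP SUN2 was at 133 and 131 CPM labelled and 68.5 and 70.7 unlabelled (0.93 ± 0.29, adjusted p = 0.0673) and MAN1A2 at 166 and 176 against 85.3 and 104 (0.85 ± 0.27, adjusted p = 0.0685). Neither passed with edgeR, and DESeq2 called both (adjusted p = 0.0253 and 0.0278). LBR also had an unadjusted p under 0.05.

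The difference between cycloheximide and puromycin at OMM was called for 4 of the 10, where 5.61% of genes were called. LBR (1.10 ± 0.24) and SUN2 (1.57 ± 0.42) were more labelled with cycloheximide, and LMNB2 (-0.91 ± 0.23) and LMNB1 (-0.74 ± 0.21) less. LBR kept its call in 12 of 13 alternatives, SUN2 in 8, LMNB2 in 6 and LMNB1 in 3. SUN1 (1.11 ± 0.38), LEMD3 (1.26 ± 0.40), MAN1A2 (0.83 ± 0.38), LMNA (-1.09 ± 0.46) and TMPO (-0.67 ± 0.23) had an unadjusted p under 0.05 and were not called. CCCP against puromycin called 0 of 10 by edgeR and by DESeq2, where 0% of genes were called, LMNB1 having an unadjusted p under 0.05. At NES cycloheximide against puromycin also called 0 of 10 by both tools (0.163% of genes), with none at an unadjusted p under 0.05.

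Unlabelled libraries differed between drugs as well: LBR (0.58 ± 0.12) and TMPO (0.55 ± 0.12) were higher with cycloheximide than with puromycin, 2 of 10 where 8.25% of genes were called. CCCP against puromycin called 0 of 10 by edgeR there (0.07% of genes), with LMNB1 and LBR at an unadjusted p under 0.05 and LBR called by DESeq2 (0.36).

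At NES the drugs left a different pattern. LMNB2 was called with each: 0.83 ± 0.17 with cycloheximide (454 and 473 CPM labelled against 273 and 248), 0.83 ± 0.17 with puromycin (603 and 616 against 365 and 321) and 0.67 ± 0.16 with CCCP (597 and 507 against 334 and 360). LMNB1 was also higher with puromycin (424 and 411 CPM against 283 and 223, 0.72 ± 0.15) and EMD lower with cycloheximide (61.3 and 59.2 CPM against 148 and 143, -1.27 ± 0.40). The members called numbered 2, 2 and 1 of 10 with cycloheximide, puromycin and CCCP, where 15.7, 7.82 and 8.36% of genes were called. The EMD call was lost when any 1 of its 4 libraries was left out (-1.24 to -1.29). The LMNB2 call held in all 9 alternatives with cycloheximide. With puromycin it was lost without the second unlabelled library (0.74), as was that of LMNB1 (0.56), and that library was of low complexity. With CCCP the LMNB2 call was lost without the first labelled or either unlabelled library (0.55 to 0.72).

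OMM against NES labelling called 6 of the 10 with cycloheximide, where 13.5% of genes were called. SUN1 (1.4 ± 0.38), SUN2 (1.36 ± 0.42) and LBR (1.34 ± 0.24) were more labelled at OMM, and LMNB2 (-1.05 ± 0.23), TMPO (-0.83 ± 0.23) and LMNB1 (-0.72 ± 0.21) at NES. None of the 6 kept its call in every alternative: with the 8 libraries of the comparison fitted alone 0 were called. With puromycin and with CCCP 0 of 10 were called by either tool, where 0.112 and 0.00933% of genes were; EMD and SUN2 had an unadjusted p under 0.05 with CCCP, and none had with puromycin. Drug and untreated cells were deposited in separate tables and were not tested against each other here.

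**Figure D5:**
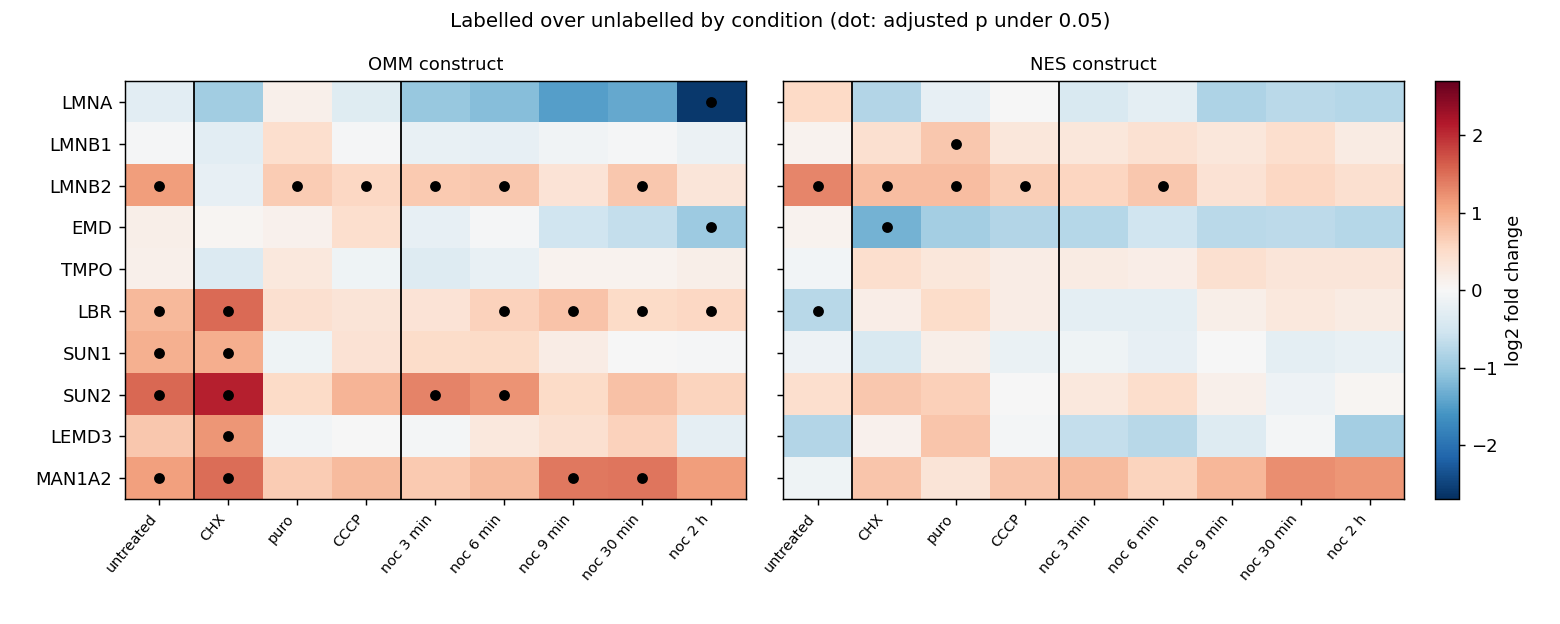
Colour gives the log2 fold change of labelled over unlabelled libraries for each gene (rows) in untreated cells, with cycloheximide (CHX), puromycin (puro), CCCP and at 5 times of nocodazole (columns), for OMM and NES; black lines part separately deposited tables and dots mark an adjusted p under 0.05. LBR, SUN1, SUN2, LEMD3 and MAN1A2 are dotted with cycloheximide at OMM and none of them with puromycin or CCCP.

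Nocodazole, which depolymerises microtubules, was given for 3, 6, 9 or 30 min or 2 h, and each labelled group was set against the unlabelled libraries of the same construct at 3 and 30 min, since these were the unlabelled times at hand. The controls are therefore shared along the course, and the values at different times are not independent. At OMM 2, 3, 2, 3 and 3 of the 10 were called at the 5 times, where 12.9, 15.2, 13.6, 12.2 and 12.7% of genes were. LBR held 552 and 618 CPM labelled at 3 min, 652 and 737 at 6 min, 869 and 669 at 9 min, 610 and 679 at 30 min and 682 and 642 at 2 h, against 388 to 506 in the 4 unlabelled libraries. It was called at 6 min (0.63 ± 0.13), 9 min (0.77 ± 0.13), 30 min (0.52 ± 0.13) and 2 h (0.56 ± 0.13), and at 3 min its value was 0.38 ± 0.13.

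SUN2 was called at the earliest times, with 211 and 181 CPM at 3 min (1.33 ± 0.32) and 174 and 186 at 6 min (1.21 ± 0.32) against 62.6 to 98.6 unlabelled. It had 135 and 101 CPM at 2 h (0.60 ± 0.33, not called). MAN1A2 was called at 9 min (276 and 263 CPM, 1.42 ± 0.40) and 30 min (282 and 267 CPM, 1.44 ± 0.40), with controls as far apart as 19.8 and 191 CPM, and LMNB2 at 3, 6 and 30 min (0.71 to 0.72). At 2 h LMNA was at 17.1 and 6.82 CPM against 52.1 to 87.1 unlabelled (-2.61 ± 0.58, adjusted p = 0.00483) and EMD at 68.5 and 106 against 149 to 216 (-0.98 ± 0.25, adjusted p = 0.0148). The first of these 2 labelled libraries was of low complexity, and without it EMD was at -0.75 (adjusted p = 0.186). Without the second LMNA was at -2.10 (adjusted p = 0.0743).

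The labelled OMM libraries at 2 h against 3 min called 0 of 10 by edgeR, where 0.449% of genes were called, with LMNA (-1.59 ± 0.60), EMD, TMPO and SUN1 at an unadjusted p under 0.05 and LMNA called by DESeq2 (-1.57). All 13 calls at OMM ended when only the libraries of a comparison were fitted, and the 4 unlabelled OMM libraries were of low complexity.

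At NES the 5 times called 0, 1, 0, 0 and 0 of the 10, where 3.1, 3.82, 1.19, 2.19 and 3.15% of genes were called. The 1 was LMNB2 at 6 min (641 and 778 CPM against 369 to 508, 0.74 ± 0.17). With edgeR 3, 3, 4, 5 and 4 of the 10 had an unadjusted p under 0.05, and DESeq2 called 2, 1, 1, 2 and 1. NES at 2 h against 3 min called 0 of 10 by either tool (0.0255% of genes), LBR having an unadjusted p under 0.05. OMM against NES was called for LBR at 6 min (0.89 ± 0.19, adjusted p = 0.0123) and for 0 of 10 at the other times, where 2.33, 2.05, 1.19, 1.1 and 0.989% of genes were called along the course. Unadjusted p-values under 0.05 numbered 2, 3, 1, 0 and 1, and DESeq2 called 1, 1, 0, 0 and 1. Unlabelled libraries at 30 against 3 min called 0 of 10 by either tool (3.37% of genes), with MAN1A2 at an unadjusted p under 0.05.

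Other genes of the envelope were read from 4 lists. Of 8 other inner membrane proteins 4 were higher with ERM, as were 5.26% of all genes tested (median 0.965, where the median over all genes was 0): NEMP1 (2.03 ± 0.22), ANKLE2 (1.53 ± 0.23), TMEM201 (1.39 ± 0.30), which codes for SAMP1, and TMEM43 (1.01 ± 0.31), which codes for LUMA. With OMM 5 of these 8 were higher, as were 3% of genes, and with LMA 3, as were 3.67%: NEMP1 (1.26 ± 0.22), LEMD2 (1.15 ± 0.32), a relative of LEMD3 that recruits ESCRT proteins, and ANKLE2 (0.79 ± 0.22). In the nuclear fraction 6 of 8 were higher, as were 34.2% of genes.

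Of 9 KASH proteins (nesprins, the partners of SUN1 and SUN2) and torsins, ATPases of the perinuclear space, 3 were higher with ERM, as were 5.26% of genes: TOR1B (1.54 ± 0.41), TOR1AIP2 (1.48 ± 0.23), which activates torsins, and TOR1A (0.91 ± 0.28). With LMA 1 of 9 was higher, TOR1AIP2 (1.14 ± 0.23), where 3.67% of genes were. In the nuclear fraction 7 of 9 were higher, against 34.2% of genes. Of 5 enzymes that process the lamin tail shown above 2 were higher with ERM (5.26% of genes), and the median of the 5 was -0.008. ICMT, which methylates the cysteine, had a mean of 551 CPM labelled and 207 unlabelled (1.42 ± 0.18), and ZMPSTE24, the protease that cleaves prelamin A, 312 and 142 (1.14 ± 0.31).

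Of 8 soluble partners of chromatin and lamina 2 were lower with ERM, as were 7.6% of genes. BANF1, which bridges DNA and LEM-domain proteins such as emerin, had a mean of 52.1 CPM labelled and 158 unlabelled (-1.6 ± 0.22), and the heterochromatin protein gene CBX3 218 and 397 (-0.86 ± 0.17). With LMA BANF1 was lower again (-1.14 ± 0.22) and CBX5, whose protein HP1 alpha binds LBR, was higher with a mean of 558 CPM labelled and 210 unlabelled (1.41 ± 0.24). Of the same 8, 2 were lower with OMM, as were 1.98% of genes, and 5 in the nuclear fraction, as were 27.8%.

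Across the 9 constructs, the labelling value of LBR ran most closely with that of LEMD3 (Pearson r = 0.941) and MAN1A2 (0.926) among the 10, and LMNA with EMD (0.829) and LMNB1 (0.818), while LMNA and MAN1A2 gave -0.683. LMNB2 ran with SUN2 (0.811), and TMPO with no other above 0.448. Over 11438 genes with at least 5 CPM, the most like LBR were PODXL (0.991), TMEM131 (0.989) and PCYOX1 (0.984). The most like LMNA were WDR46 (0.977), TALDO1 (0.967) and DNTTIP1 (0.956), and the most like EMD were SHMT2 (0.975), RPL3 (0.974) and GPX4 (0.971). These describe 9 points each, every point resting on 4 libraries in 1 table and the same scaling. The best of so many genes is high by selection. For LMNA the points include LMA, where its counts cannot be read as those of the native transcript.

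Read by the position of the first hydrophobic stretch, a grouping made with the values known, the 5 genes with over 300 codons after it (LBR, SUN1, SUN2, LEMD3 and MAN1A2) had 4 called higher with ERM (median 1.15), 4 with OMM (0.96), 5 with OMM and cycloheximide (1.51) and 5 in the nuclear fraction (1.14). Of all genes tested 5.26, 3, 12.4 and 34.2% were called higher in these comparisons (12.9, 4.99, 17.7 and 62% in either direction). No test compared the groups of genes. With OMM and puromycin 0 of the 5 were called (median 0.43), MAN1A2 and LBR having an unadjusted p under 0.05 and DESeq2 calling 0. TMPO, with under 20 codons after it in its longest membrane form, was not called higher in any of these and was lower in the nuclear fraction. EMD was not placed in this grouping. Of the lamins, with none, LMNB2 was higher with ERM, OMM and OMM with puromycin, LMNA lower with ERM, and LMNB1 lower with ERM and in the nuclear fraction. Of the 3 lamins LMNB2 alone was called higher at the ER and outer mitochondrial surfaces. It was also higher in the cytosol with NES, where LBR was lower. LMNB2 had a median of 282 CPM (169 to 390) in the 16 unlabelled libraries of constructs other than LMA. Its unlabelled ERM (212 and 251) and OMM (169 and 178) libraries lay below that median. Its labelled ones (363 and 393, 367 and 393) lay near or just above the top of that range.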

How the data were processed

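Counts per gene were deposited by the authors as 5 tables, raw and with 1 column per library; per the submitters' processing notes Trimmomatic, STAR, HTSeq, SAMtools and bedtools were used on GRCh38, with versions and settings not given in the sources used here. Tables of log2 fold changes and p-values deposited by the authors, for which the notes name DESeq2, were not used for any value here. Libraries were stranded per the labels' protocols, and the strand setting of the counting is not stated.

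Each table was fitted whole with edgeR 4.0.16 in R 4.3.3: TMM scaling, filterByExpr, trended dispersion, 1 model of group means, quasi-likelihood F test and Benjamini-Hochberg adjustment over all genes tested, with a threshold of 0.05. A standard error is the size of the log2 fold change divided by the root of its F statistic. The fit was tested on simulated data. With 2 libraries per group, p-values rest on the spread between replicate libraries, estimated over all groups of a table. They do not measure the spread within the compared groups alone. MITO libraries of poly(A) RNA lie in 2 tables with identical counts and were read from the constructs table. Python 3.11.15 computed hydropathy (Kyte-Doolittle, window of 19 residues) from GENCODE 29 coding sequences. The coding sequence of EMD is not reported here. The results were recomputed with DESeq2 1.42.0, with RLE scaling, without the filter, with only the libraries of a comparison, with a replicate block, with other controls, without low-complexity libraries and without each library in turn. Samples with the same replicate number did not deviate together, so the numbers were not taken as pairs.

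The 10 genes and the lists were chosen with earlier results of these data known. All 10 are named. From 4 lists of partner genes up to 4 are named per list, those with the largest change among genes called with ERM or LMA. For LMNA, LBR and EMD the 3 genes most alike across constructs are named.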

Additional observations from a re-analysis of the deposited data

Results flagged for a closer look

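Labelling differed between constructs or drugs, by a test of the difference itself (edgeR, 2 libraries per group, log2 scale), in 30 results. The share of all genes called in each of these comparisons is given above. LBR was more labelled with ERM than with NES (2.23) and NLS (1.96), with OMM than with NES (1.63 untreated, 1.34 with cycloheximide and 0.89 at 6 min of nocodazole), with LMA than with NES (0.86), and at OMM with cycloheximide than with puromycin (1.10); it was less labelled with LMA than with ERM (-1.37). MAN1A2 was more labelled with ERM than with NES (2.25) and NLS (1.81) and with OMM than with NES (1.23), and less with LMA than with ERM (-1.64).

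SUN1 was more labelled than with NES when the construct was ERM (1.29), OMM (1.09, and 1.4 with cycloheximide) or NLS (1.35). SUN2 differed between OMM and NES with cycloheximide (1.36) and at OMM between cycloheximide and puromycin (1.57). LEMD3 was more labelled with ERM than with NES (1.85). TMPO was less labelled at OMM than at NES with cycloheximide (-0.83), and EMD less with LMA than with NES (-1.26, a call kept in 6 of 15 alternatives and at -0.28 with controls of all 9 constructs).

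Of the lamins, LMNA was less labelled with ERM than with NES (-1.98). LMNB1 was less labelled at OMM with cycloheximide than at NES (-0.72) and than at OMM with puromycin (-0.74). LMNB2 was less labelled than with NES when the construct was LMA (-1.71), NLS (-1.58) or OMM with cycloheximide (-1.05). It was also less labelled with LMA than with ERM (-1.11) and at OMM with cycloheximide than with puromycin (-0.91), and more with ERM than with NLS (0.98).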

How the results depend on the processing

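Of 87 called results of the 10 genes, 26 were called under every alternative run and 0 changed sign. DESeq2 kept 87 of 87 and called 31 more. RLE size factors kept 83, no filter on low counts 82, leaving out low-complexity libraries 35 of 39, controls of all 9 constructs 34 of 38 and only the libraries of a comparison 32 of 79; the cause was not tested. Depth and 2 libraries per group limit all of these.

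The numbers of the 10 genes called moved as follows. The share of all genes called was not kept for these settings, the replicate block or the runs without 1 library. Whether the counts moved with that share therefore cannot be told. DESeq2 called 3 with NLS, 2 with NIK, 1 with MITO, 1 for ERM against OMM, 1 for unlabelled CCCP against puromycin, 7 over the 5 NES nocodazole times, 3 for OMM against NES over these times and 1 for OMM at 2 h against 3 min. RLE size factors called 1 with LMA. With no filter 2 were called with NLS, 5 for ERM against NLS, 1 for ERM against OMM, 1 for OMM against NES, 10 at NES over 3 drugs, 7 over the NES nocodazole times and 1 for unlabelled 30 against 3 min. With only the libraries of a comparison 5 were called with NLS, 0 with NIK, 0 with NES, 4 with ERM, 3 with OMM, 2 for ERM against NES, 5 for ERM against NLS, 1 each for OMM against NES, NLS against NES and LMA unlabelled, and 0 for OMM against NES over 3 drugs, unlabelled cycloheximide against puromycin and the 3 nocodazole series. Controls of all 9 constructs gave 4 with NLS, 4 with NIK, 4 with LMA, 3 with NucPore, 1 with NES, 2 with MITO, 1 for LMA against NLS, 5 for LMA against ERM, 8 for ERM against NES, 5 for ERM against NLS and 2 for ERM against OMM. Without low-complexity libraries these were 1 with NES, 6 for LMA against ERM, 6 for ERM against NLS, 3 for ERM against OMM, 4 for NLS against NES, 1 for unlabelled CCCP against puromycin, 8 over the NES nocodazole times and 1 for OMM at 2 h against 3 min.

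Samples with the same replicate number had correlated deviations of only -0.183 to 0.147, so the numbers do not pair them. The replicate block kept 80 of 87 calls and gave 2 with NIK, 5 for ERM against NLS, 1 for ERM against OMM, 1 for OMM against NES and 1 for LMA unlabelled.

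Leaving out 1 library at a time gave 5 to 6 calls with ERM, 3 to 5 with OMM, 1 to 4 with NES, 0 to 2 with NIK, 1 with LMA, 1 to 3 for LMA unlabelled and 6 to 9 for the fractions. Between constructs it gave 3 to 7 for ERM against NES, 2 to 4 for ERM against NLS, 2 to 4 for LMA against ERM, 1 to 5 for LMA against NES, 1 to 4 for OMM against NES and 1 to 4 for NLS against NES. With drugs it gave 5 to 9 at OMM, 4 to 6 at NES, 2 to 6 for OMM against NES, 0 to 4 for OMM cycloheximide against puromycin and 2 to 4 for the unlabelled libraries. With nocodazole it gave 10 to 18 at OMM, 0 to 3 at NES, 0 to 3 for OMM against NES and 0 to 1 for unlabelled 30 against 3 min.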
